A study of Mus musculus with 16 samples.

Results

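The genes described here are 32 genes of glycolysis and of the response to low oxygen, measured in CD4+ T cells of worm-infected mice. They were taken from a fixed list of names in 5 roles (glucose and lactate transport, upper glycolysis, lower glycolysis, pyruvate entry into mitochondria, and the hypoxia-inducible factor pathway) and not from their values. All 32 were found among the 31053 genes counted in lung and mesenteric lymph node (MLN) and among the 32285 genes counted in a second run on the lung-draining mediastinal lymph node (medLN) and MLN.

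All mice were 4get mice on a C57BL/6 background, in which green fluorescent protein placed behind the Il4 gene marks T cells that have opened Il4 for expression, and all were infected with the hookworm-like nematode Nippostrongylus brasiliensis (Nb) and analysed on day 10. The first run used 2 mice aged 13 weeks, whose CD4+IL-4eGFP+ cells were sorted separately from lung and from MLN into 4 libraries (lung 1, lung 2, MLN 1, MLN 2). In the second run CD4+ cells from the medLN and MLN of 2 other mice aged 10 weeks carried antibody hashtags for mouse and organ, and the sort gave 1 library of IL-4eGFP+ cells and 1 of IL-4eGFP- cells, each holding 4 of the 8 hashtagged samples. No uninfected mouse was analysed here. Lungs were perfused, after which some cells within blood vessels were still present, and were digested with enzymes and cleaned on Percoll, whereas lymph nodes were only mashed, so that organ and digestion cannot be told apart in the first run. The IL-4eGFP gate and the sequencing library cannot be told apart in the second.

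Glycolysis splits glucose into pyruvate and yields ATP without oxygen. Pyruvate then either enters mitochondria, where the pyruvate dehydrogenase complex oxidises it, or is turned into lactate by lactate dehydrogenase and leaves the cell through a monocarboxylate transporter. Hypoxia-inducible factor 1α (HIF-1α, encoded by Hif1a) is hydroxylated by prolyl hydroxylases of the Egln family and degraded while oxygen is present. When it is stable it pairs with ARNT, binds DNA at a short core motif and switches on genes of glycolysis, of lactate production and of mitophagy, and T cells also raise it after antigen receptor signalling. Activated and dividing T cells are known for high glucose use, and naive T cells for low use.

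The core letters bound by HIF-1α are ACGTG or GCGTG, and both were searched on both strands in the promoters of the 32 genes, each taken as 250 bases before to 50 bases after the RefSeq start. RefSeq sequence on build GRCm38.p6 was matched for 30 of the 32 genes, all but Slc2a3 and Bnip3l. ACGTG was present in 19 of the 30 promoters (63.3%) against 21.8% of the promoters of 27025 genes, and GCGTG in 20 (66.7%) against 35.2%. At least 1 of the 2 was found in 27 of the 30 promoters against 46.7% of the promoters of all genes. The letters CACGTG, which hold ACGTG on both strands and are also bound by Myc and other factors, were present in 5 promoters (16.7%) against 8.09%. The promoters of all genes were not matched to those of the list in base composition or expression, so these shares are no test of enrichment. The promoters of Gpi1, Tpi1 and Bpgm had neither core in this window. Windows of 100 bases are shown for 8 genes picked by role with their values known, namely Hif1a and its hydroxylase gene Egln3, the hexokinase gene Hk2, the pyruvate kinase gene Pkm, both lactate dehydrogenase genes Ldha and Ldhb, the pyruvate dehydrogenase kinase gene Pdk1 and the mitophagy gene Bnip3, with capitals marking each ACGTG or GCGTG or its reverse complement. Each window was chosen as the stretch before a start of its gene with the most matches, so it is not a typical stretch of promoter. The windows are Ldha chr7:46845704-46845803 on the plus strand, Hk2 chr6:82774455-82774554 on the minus strand, Hif1a chr12:73907732-73907831 on the plus strand, Pdk1 chr2:71873124-71873223 on the plus strand, Egln3 chr12:54204004-54204103 on the minus strand, Bnip3 chr7:138909524-138909623 on the minus strand, Pkm chr9:59657127-59657226 on the plus strand and Ldhb chr6:142507984-142508083 on the minus strand, each printed 5′ to 3′ along its gene.
Ldha: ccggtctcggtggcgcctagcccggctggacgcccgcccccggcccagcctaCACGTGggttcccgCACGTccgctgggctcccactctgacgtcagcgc
Hk2: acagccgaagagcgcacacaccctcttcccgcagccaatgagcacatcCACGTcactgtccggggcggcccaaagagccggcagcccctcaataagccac
Hif1a: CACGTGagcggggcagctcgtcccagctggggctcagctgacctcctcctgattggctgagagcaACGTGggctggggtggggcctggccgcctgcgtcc
Pdk1: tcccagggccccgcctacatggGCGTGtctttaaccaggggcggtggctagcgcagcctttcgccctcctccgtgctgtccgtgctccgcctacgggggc
Egln3: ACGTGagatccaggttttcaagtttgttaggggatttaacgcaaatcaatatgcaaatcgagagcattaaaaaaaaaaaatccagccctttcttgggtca
Bnip3: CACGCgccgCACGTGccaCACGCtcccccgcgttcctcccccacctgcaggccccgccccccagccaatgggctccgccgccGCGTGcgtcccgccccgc
Pkm: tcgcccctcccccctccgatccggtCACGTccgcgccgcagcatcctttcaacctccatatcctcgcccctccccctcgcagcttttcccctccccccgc
Ldhb: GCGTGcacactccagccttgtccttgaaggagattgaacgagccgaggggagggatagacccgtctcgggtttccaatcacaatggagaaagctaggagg
These matches describe letters in the sequence and are not shown to be bound sites. Genes that were higher in lung and genes that were lower in lung held a core about as often (6 of 7 and 8 of 9 promoters), as did 12 of the 13 promoters of genes that did not pass the test.

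Levels are counts of unique molecular identifiers (UMIs), tags that let copies of 1 RNA molecule be counted once, given as CPM, the UMIs of a gene per 1000000 UMIs of the sample. After the filters 1082 and 416 lung cells, 2462 and 754 MLN cells, and 1992 to 2249 cells per sample of the second run remained, with totals of 2789854 to 14442133 UMIs per sample. Counts were summed over the cells of a sample before testing, so that fewer cells of a type and less RNA per cell cannot be told apart. All 6 T cell markers had UMIs in each of the 12 samples, and summed pancreas markers lay at 0 to 6.11 CPM except in MLN 2 of the first run (99.3). Groups of 2 mice limit what the tests can show, and their p-values cover only the spread between these samples.

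The first comparison asks how the genes differ between IL-4eGFP+ cells of the lung and those of the MLN. The MLN belongs to the intestine, to which the worms move after the lung. Of the 31 genes with enough UMIs to test, 7 were higher and 9 were lower in lung, 16 in all (51.6%), against 31.0% of all 10588 genes tested (17.0% higher, 14.0% lower). Their median log2 difference was −0.16, against −0.005 over all genes. The list therefore did not move as a block, and each role held genes of both directions except transport. The values of the 2 lung libraries and the 2 MLN libraries did not overlap for 23 of the 31 genes, against 68.8% of all genes. Vegfa, the growth factor for blood vessels, was the gene too rare to test, with 7 and 0 UMIs in the lung libraries and 3 and 1 in the MLN libraries.

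**Figure D1:**
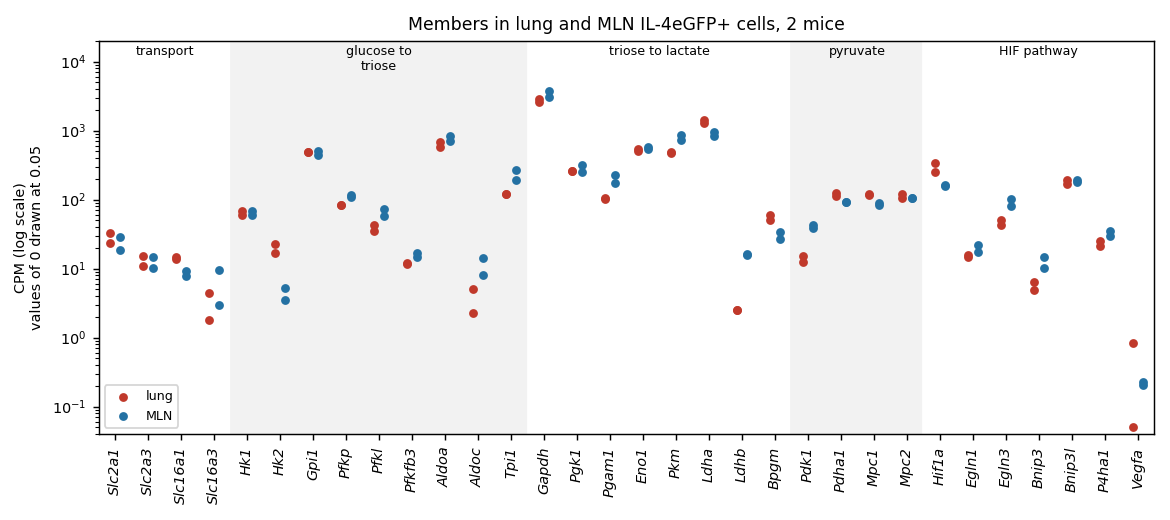
CPM (log axis, values of 0 drawn at 0.05) of each of the 32 genes in the IL-4eGFP+ cells of the first run, ordered by role, with 1 point per library (red for lung, blue for MLN). Hk2, Hif1a, Bpgm and Ldha lie higher in both lung libraries, and Ldhb, Pdk1, Tpi1 and Egln3 lie higher in both MLN libraries.

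Among the transporters, Slc16a1, which carries lactate and pyruvate across the plasma membrane (MCT1), was the one that differed. It stood at 14.5 and 13.6 CPM in lung 1 and lung 2 and at 9.14 and 7.86 in MLN 1 and MLN 2. Both lung libraries were higher, with a log2 difference of 0.86 (SE 0.211, adjusted p = 0.0132, edgeR quasi-likelihood test). The lactate exporter Slc16a3 (MCT4) ranged from 1.79 to 9.42 CPM with overlapping groups (log2 difference −0.77, adjusted p = 0.295). The glucose transporters Slc2a1 (GLUT1) and Slc2a3 (GLUT3) also overlapped, at log2 differences of 0.27 and 0.20 (adjusted p = 0.348 and 0.559).

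In upper glycolysis, Hk2 had the widest difference upwards in lung. Hk2 encodes hexokinase 2, the inducible form of the enzyme that phosphorylates glucose (chr6:82725025-82774454, minus strand). It stood at 16.97 and 22.94 CPM in lung 1 and lung 2 (144 and 64 UMIs) and at 3.46 and 5.17 in MLN 1 and MLN 2 (50 and 23 UMIs). The groups were far apart, with a log2 difference of 2.40 (SE 0.254, adjusted p = 0.000112). Hk1, the constitutive hexokinase, spanned 59.3 to 69.2 CPM with overlapping groups and a log2 difference of 0.12 (adjusted p = 0.493).

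The other upper-glycolysis genes that passed the test were lower in lung. Pfkl, a subunit of phosphofructokinase, stood at 35.2 and 43.4 CPM in lung and 72.9 and 57.0 in MLN (log2 difference −0.63, SE 0.15, adjusted p = 0.0112). Aldoc, an aldolase, stood at 2.24 and 5.02 in lung and 14.1 and 8.08 in MLN (−1.77, SE 0.389, adjusted p = 0.00774). Tpi1, triosephosphate isomerase, stood at 118 and 119 in lung and 272 and 195 in MLN (−0.85, SE 0.161, adjusted p = 0.00373). In these genes each MLN library was above each lung library. The phosphofructokinase gene Pfkp (−0.28, adjusted p = 0.0899), the main aldolase gene Aldoa (−0.17), Pfkfb3, whose product makes an activator of phosphofructokinase (−0.24), and Gpi1, glucose-6-phosphate isomerase (0.18), did not pass.

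Lower glycolysis was split at the lactate step, where the genes of the 2 lactate dehydrogenase subunits went opposite ways. Ldha, the subunit that favours making lactate (chr7:46841475-46855627, plus strand), stood at 1417 and 1281 CPM in lung and at 960 and 827 in MLN. Ldhb, the subunit that favours turning lactate back into pyruvate (chr6:142490249-142507957, minus strand), stood at 2.48 and 2.51 in lung (21 and 7 UMIs) and at 15.6 and 16.4 in MLN (225 and 73 UMIs). Ldha was higher in lung by 0.73 on the log2 scale (SE 0.15, adjusted p = 0.00546) and Ldhb was lower, at −2.51 (SE 0.254, adjusted p = 8.58e-05), the widest fall among the genes listed. The groups did not overlap for either gene.

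Bpgm, whose product makes 2,3-bisphosphoglycerate on a side path of glycolysis, stood at 51.4 and 58.8 CPM in lung and 27.1 and 34.1 in MLN, a log2 difference of 1.00 (SE 0.142, adjusted p = 0.000706). Pgam1, phosphoglycerate mutase, went the other way, with 107 and 103 in lung and 230 and 173 in MLN (−0.81, SE 0.153, adjusted p = 0.00362). Pkm, pyruvate kinase, also fell in lung, from 864 and 721 in MLN to 487 and 476 (−0.58, SE 0.138, adjusted p = 0.011). The 3 remaining genes, Gapdh (−0.16), Pgk1 (0.00) and Eno1 (0.06), lay near 0 with adjusted p-values of 0.49, 0.99 and 0.757. Gapdh was read with caution because 93 other annotated genes, mostly processed copies, share a near-identical stretch with it, and 3 of them were counted, with few UMIs.

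At the entry of pyruvate into mitochondria, 2 of the 4 genes were higher and 1 was lower in lung. Pdk1, a kinase that switches pyruvate dehydrogenase off (chr2:71873224-71903858, plus strand), stood at 12.6 and 15.1 CPM in lung and at 43.1 and 38.9 in MLN, and was lower in lung at −1.47 (SE 0.15, adjusted p = 9.11e-05). Pdha1, the catalytic subunit that this kinase acts on, stood at 126 and 112 in lung and 91.5 and 93.2 in MLN, and was higher in lung at 0.51 (SE 0.128, adjusted p = 0.0148). Mpc1, a subunit of the mitochondrial pyruvate carrier, stood at 118 and 119 in lung and 88.8 and 82.2 in MLN (0.60, SE 0.114, adjusted p = 0.0037). The groups did not overlap for these 3 genes. The partner subunit Mpc2 was at 0.26 (adjusted p = 0.151).

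In the hypoxia-inducible group, Hif1a itself (chr12:73901375-73947530, plus strand) was higher in lung, with 342 and 252 CPM against 159 and 163 in MLN (log2 difference 1.04, SE 0.175, adjusted p = 0.00193). Egln3, a prolyl hydroxylase that is also a target of HIF-1α, went the other way, with 50.1 and 42.3 in lung and 100.3 and 81.1 in MLN (−0.81, SE 0.159, adjusted p = 0.00423). Bnip3, a mitophagy receptor, stood at 4.83 and 6.45 in lung and 14.7 and 10.3 in MLN (−1.12, SE 0.267, adjusted p = 0.0116). These 2 known targets thus lay opposite to the transcript of the factor, whereas other known HIF targets, given below, went both ways (8 higher and 6 lower of 22 tested). Egln1, the main oxygen-sensing hydroxylase (−0.22), the mitophagy receptor Bnip3l (0.08) and P4ha1, which hydroxylates collagen (−0.32), did not pass. The annotation of Hif1a overlaps that of a same-strand gene, Gm49321, with which it shares sequence. That of the transporter gene Slc16a1 overlaps the same-strand genes Gm43581 and Gm43585. The effect of these overlaps on the counts was not tested.

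The genes of the wider pathway were counted from lists. Among other known HIF targets 8 of 22 tested genes were higher and 6 lower in lung, against 17.0% and 14.0% of all genes. The widest differences were upwards, in Ndrg1 (log2 difference 5.36), the lipid-droplet gene Hilpda (4.89), Bhlhe40 (4.43) and Plod2 (3.31). Hilpda stood at 648.8 CPM in lung against 24.0 in MLN on average. Ndrg1 and Plod2 averaged only 1.56 and 0.683 CPM in MLN, and genes that rare there could enter the test through lung alone. HIF partners and regulators gave 2 higher and 1 lower of 11, with Vhl, which marks HIF-1α for degradation, at −0.66. Upstream growth regulators gave 3 higher of 13, led by the amino acid transporter genes Slc7a5 (3.07) and Slc3a2 (1.24). Other glycolysis genes gave 2 higher and 3 lower of 14, the tricarboxylic acid cycle 2 and 2 of 17, other pyruvate metabolism 3 higher of 11, and the pentose phosphate pathway 1 higher of 7.

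Some of these differences ran alongside others. Of 16 genes known to rise when tissue is taken apart (Fos, Jun, Egr1 and others), 15 were higher in lung, with a summed level of 10870 and 10210 CPM in lung 1 and lung 2 and 1783 and 1374 in MLN 1 and MLN 2. Their part in the differences above was not tested. Cycling cells, defined by 17 proliferation genes, had shares of 9.06% and 10.8% in the lung libraries and of 5.16% and 5.31% in those of the MLN. Without them 7 genes were again higher and 9 lower, with 3218 of all 10247 genes called. Of 10 myeloid markers 7 were tested, 1 was higher in lung (Cst3) and 4 were lower (Lyz2, C1qa, C1qb and C1qc), and these 4 had 0 UMIs in both lung libraries against 31 to 220 UMIs in the MLN libraries. In all, 5 and 6 of the 10 were at 0 in lung 1 and lung 2 and 1 in each MLN library. Their sum, 137 and 135 CPM in lung and 130.2 and 166 in MLN, was mostly Cst3 (100.2 to 129 CPM). With cells holding UMIs of other cell types left out, 7 genes were again higher and 9 lower, with 3061 of all 10030 genes called. That filter dropped cells with at least 2 UMIs of any such list, Cst3 included, so deeper cells were dropped more easily. Of the 16 genes, 8 passed under every alternative tried (Hk2, Hif1a, Bpgm, Ldhb, Pdk1, Tpi1, Egln3 and Pgam1). The same share over all called genes is not given here. Without MLN 2 the adjusted p became 0.108 for Ldha, 0.0546 for Mpc1 and 0.0675 for Slc16a1, and without MLN 1 it became 0.159 for Pfkl, 0.17 for Pkm, 0.117 for Aldoc and 0.207 for Bnip3. With DESeq2 the adjusted p was 0.107 for Slc16a1 and 0.0821 for Bnip3, and with sums thinned to the smallest library it was 0.0586 for Slc16a1. Without lung 1 it became 0.0565 for Aldoc, 0.0575 for Bnip3 and 0.0828 for Slc16a1. Pdha1 passed without lung 2 but not without any of the other 3 libraries, with adjusted p-values of 0.0768 to 0.0918.

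**Figure D2:**
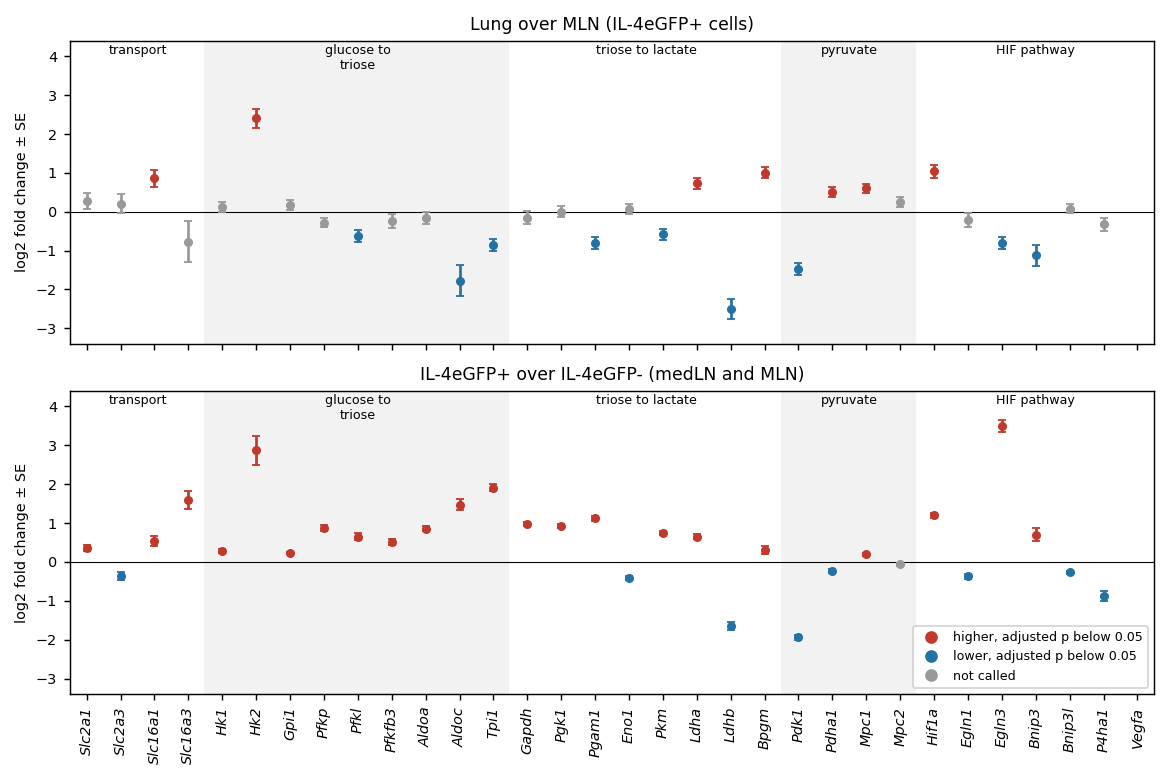
Log2 fold change (vertical axis) with bars of 1 SE for the 31 tested genes, in lung against MLN (upper panel) and in IL-4eGFP+ against IL-4eGFP- cells of the second run (lower panel), with red for genes called higher, blue for genes called lower and grey for genes not called; Vegfa was not tested. Hk2 and Hif1a lie above 0 and Ldhb and Pdk1 below 0 in both panels, while Tpi1, Pgam1, Pkm and Egln3 lie below 0 in the upper and above 0 in the lower panel.

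The second run asks whether the lymph node that drains the lung differs from the MLN. Among IL-4eGFP+ cells 1 of 31 genes passed the test, against 1.28% of 11263 genes, and 5 had an unadjusted p below 0.05 (12.4% of all genes). The gene was Slc2a3, the neuronal-type glucose transporter GLUT3 that T cells also use, with 7.81 and 7.61 CPM in medLN 1 and medLN 2 and 13.64 and 15.95 in MLN 1 and MLN 2. Both medLN samples were lower (log2 difference −0.95, SE 0.154, adjusted p = 0.0306), but the call was lost with DESeq2 (adjusted p = 0.0686), with no filter on low counts (0.0608) and without medLN 1, medLN 2 or MLN 2 (0.103 to 0.198). Among IL-4eGFP- cells 0 of 30 genes passed, against 0.178% of 10684 genes, 1 had an unadjusted p below 0.05 (Pdk1, log2 difference −0.28) against 6.23% of all genes, and DESeq2 called 0. No gene passed the test of whether the organ difference depended on the gate (0 of 31, against 0.156% of 11535 genes, 2 at an unadjusted p below 0.05, against 7% of all genes, and 0 by DESeq2). The 2 were Slc2a3, at −1.02 (adjusted p = 0.123), and Ldhb, at −0.60 (adjusted p = 0.602). The other pathway lists also held no gene that passed in either gate.

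The gate comparison asks how IL-4eGFP+ cells differ from the IL-4eGFP- CD4+ cells of the same nodes, which can include naive and regulatory T cells. Here 22 of 31 genes were higher and 8 lower in IL-4eGFP+ cells, 30 in all, against 62.1% of 11535 genes (31.8% higher, 30.3% lower). Their median log2 difference was 0.54, against −0.009 over all genes. All 9 upper-glycolysis genes were higher, as were 6 of 8 in lower glycolysis and 3 of 4 transporters. Among the 9, Hk2 was too rare to test within IL-4eGFP- cells and entered this test only through the IL-4eGFP+ samples. Pyruvate genes gave 1 higher and 2 lower, and the hypoxia-inducible group 3 and 3. The 4 IL-4eGFP+ and the 4 IL-4eGFP- samples did not overlap for 27 of 31 genes, against 57.5% of all genes.

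**Figure D3:**
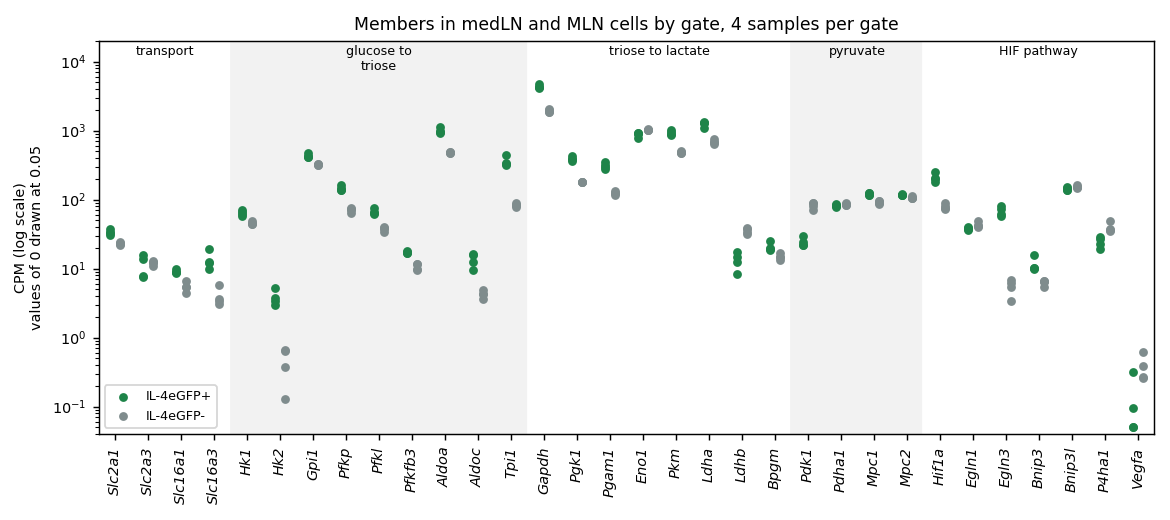
CPM (log axis, values of 0 drawn at 0.05) of each of the 32 genes in the second run, ordered by role, with 1 point per sample and 4 samples per gate (green for IL-4eGFP+, grey for IL-4eGFP-). Egln3, Tpi1, Hif1a and Gapdh lie higher in all 4 IL-4eGFP+ samples and Pdk1 and Ldhb lie higher in all 4 IL-4eGFP- samples.

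The gene with the widest difference was the hydroxylase gene Egln3. It stood at 62.3 and 80.2 CPM in the IL-4eGFP+ samples MLN 1 and MLN 2 and at 56.8 and 73.2 in medLN 1 and medLN 2, whereas the IL-4eGFP- samples lay at 3.36, 5.35, 6.099 and 6.92 (27 to 52 UMIs). Its log2 difference was 3.49 (SE 0.151, adjusted p = 8.47e-09). Hif1a lay between 179 and 249 in IL-4eGFP+ samples and between 72.9 and 89.1 in IL-4eGFP- samples (1.20, SE 0.067, adjusted p = 5.94e-08). Bnip3 was also higher (0.70, SE 0.167, adjusted p = 0.00363), whereas P4ha1 (−0.87), Egln1 (−0.37) and Bnip3l (−0.27) were lower. For Egln1 and Bnip3l the CPM overlapped between gates, and Bnip3l no longer passed with library totals for scaling (−0.08, adjusted p = 0.144).

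Hk2 was nearly absent outside the IL-4eGFP gate. IL-4eGFP+ samples lay at 2.96 to 5.29 CPM (28 to 56 UMIs) and IL-4eGFP- samples at 0.13 to 0.665 (1, 3, 5 and 5 UMIs), a log2 difference of 2.87 (SE 0.379, adjusted p = 5.91e-05) that rests on these few UMIs and was 0.84 (adjusted p = 0.255) among cells with a UMI of Cd44, a marker of antigen-experienced cells. Tpi1 lay at 320 to 441 against 77.7 to 88.0 (1.91, SE 0.0916, adjusted p = 1.91e-08) and Aldoc at 9.52 to 16.4 against 3.59 to 4.84 (1.47, SE 0.138, adjusted p = 3.83e-06, but 0.64 and adjusted p = 0.205 among cells with a UMI of Cd44). Each IL-4eGFP+ sample was above each IL-4eGFP- sample in all 3 genes. Of the other upper-glycolysis genes Pfkp (0.87) and Aldoa (0.86) moved most, and Hk1 (0.29) and Gpi1 (0.23) least.

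In lower glycolysis Gapdh, the gene with the most UMIs of the list, lay at 4188 to 4682 CPM in IL-4eGFP+ samples and 1841 to 2021 in IL-4eGFP- samples (0.98, SE 0.0467, adjusted p = 1.73e-08). Pgam1 lay at 281 to 346 against 115 to 133 (1.12, SE 0.0691, adjusted p = 1.27e-07). Pgk1 (0.93), Pkm (0.74) and Ldha (0.65) were higher too. Bpgm passed as well (0.30), but not with DESeq2 (adjusted p = 0.124) nor in 6 of the 8 fits that left out 1 sample (0.0557 to 0.156). Ldhb was lower, at 8.34 to 17.6 against 31.4 to 38.7 (−1.65, SE 0.114, adjusted p = 3.43e-07), and so was Eno1, enolase 1, at 779 to 924 against 1003 to 1070 (−0.41, SE 0.054, adjusted p = 5.53e-05). Enolase thus lay opposite to the genes of the steps before and after it, Pgam1 and Pkm. Reads of Eno1 can be shared with the near-identical copy Eno1b, which had 45 to 96 UMIs per sample.

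Of the transporters Slc16a3 changed most, at 9.93 to 19.3 CPM in IL-4eGFP+ and 3.11 to 5.71 in IL-4eGFP- samples (1.59, SE 0.235, adjusted p = 0.000142), a difference that was 0.57 (adjusted p = 0.257) among cells with a UMI of Cd44. Slc16a1 (0.54) and Slc2a1 (0.35) were higher, Slc16a1 not with DESeq2 (adjusted p = 0.0549). Slc2a3 was lower (−0.37, adjusted p = 0.00705) with overlapping values, and the call was lost when mouse and organ were kept as a block (adjusted p = 0.145) and with DESeq2 (0.0991). Among the pyruvate genes Pdk1 was lower, at 21.9 to 29.9 against 71.2 to 89.6 (−1.94, SE 0.0684, adjusted p = 2.06e-09), the firmest call of the list. Mpc1 was higher (0.20) and Pdha1 lower (−0.24), the latter with overlapping values and not with library totals (−0.05, adjusted p = 0.401). Mpc2 was the gene that did not pass (−0.06, adjusted p = 0.191).

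Other HIF targets gave 14 higher and 2 lower of 24, against 31.8% higher and 30.3% lower of all genes. Hmox1 (2.80), Bhlhe40 (2.53) and Ak4 (2.83) were among the widest differences. Within IL-4eGFP- cells alone 21 of this list were testable, and Ak4 averaged 0.322 CPM there. Genes that rare could enter the gate test through the IL-4eGFP+ samples only. HIF partners and regulators gave 5 higher and 0 lower of 11, led by Epas1, which encodes HIF-2α, at 128 against 12.1 CPM on average (3.20, SE 0.116, adjusted p = 2.48e-09). Upstream growth regulators gave 1 higher and 4 lower of 13, and Myc was lower, at 64.2 against 188 on average (−1.73, SE 0.0726, adjusted p = 7.02e-09). The tricarboxylic acid cycle gave 11 higher and 2 lower of 17, the pentose phosphate pathway 4 higher of 7, other glycolysis 6 and 5 of 15 and other pyruvate metabolism 3 and 3 of 11.

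Cycling cells differed between the gates too. They made up 11.95% to 15.42% of the IL-4eGFP+ cells and 1.66% to 2.15% of the IL-4eGFP- cells, and all 17 cycling genes were higher in IL-4eGFP+ cells. Without cycling cells 20 genes were higher and 6 lower, against 55.8% of all genes called. The 4 calls lost were Bnip3l (0.02, adjusted p = 0.698), Mpc1 and Slc16a1 (0.02 each, adjusted p = 0.704 and 0.934) and Slc2a3 (−0.18, adjusted p = 0.178). When both gates were restricted to cells with a UMI of Cd44, 13 genes were higher and 5 lower, 18 of 31, against 20.7% of 10006 genes. The 12 calls lost were Hk2, Aldoc, Slc16a3, Slc16a1 (0.91, adjusted p = 0.111), Slc2a1 (0.32), Pfkfb3 (0.33), Hk1 (0.22), Gpi1 (0.15), Bpgm (0.03), Egln1 (−0.19), Eno1 (0.07, adjusted p = 0.568) and Pdha1 (0.28, adjusted p = 0.0934). This restriction left 129 to 198 cells in each IL-4eGFP- sample. Of 8 myeloid markers tested 5 were higher in IL-4eGFP+ cells (Lyz2, C1qa, C1qb, C1qc and Cst3) and 1 lower (Fcer1g), with a sum of 176 to 271 CPM in IL-4eGFP+ and 114 to 138 in IL-4eGFP- samples and 0 or 1 of the 10 at 0 in each. With cells holding UMIs of other cell types left out 27 genes were called, with 6356 of all 10987 genes called. Slc16a1 (0.14), Bnip3l (−0.09) and Mpc1 (0.05) no longer passed, and they also lost their calls without cycling cells. In the second run 2413 cells held at least 2 UMIs of any such list, Cst3 included, which deeper cells reach more easily. The cause of these losses was not tested.

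Cycling cells were therefore compared with the other cells of the same library in the first run. The 310 cycling cells (98 and 45 in lung 1 and lung 2, 127 and 40 in MLN 1 and MLN 2) are the upper range of a score and not a cell type. Against the other cells 10 genes were higher and 9 lower, 19 of 31 (61.3%), against 45.2% of 9054 genes (22.0% higher, 23.2% lower), with a median log2 difference of −0.06 against −0.077 over all genes. The lower calls were the less firm ones, with 10 higher and 3 lower by DESeq2 (against 32.1% of all genes). With sums thinned to the smallest, 9 were higher and 4 lower of 24 testable genes (against 38.3%). Without MLN 1, 8 were higher and 4 lower of 28 testable genes, with 3127 of all 8787 genes called. The groups of 4 did not overlap for 6 of 31 genes, against 27.8% of all genes. Genes of lower glycolysis made up most of the rise (6 higher, 1 lower of 8), whereas the hypoxia-inducible group gave 0 higher and 3 lower of 6.

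**Figure D4:**
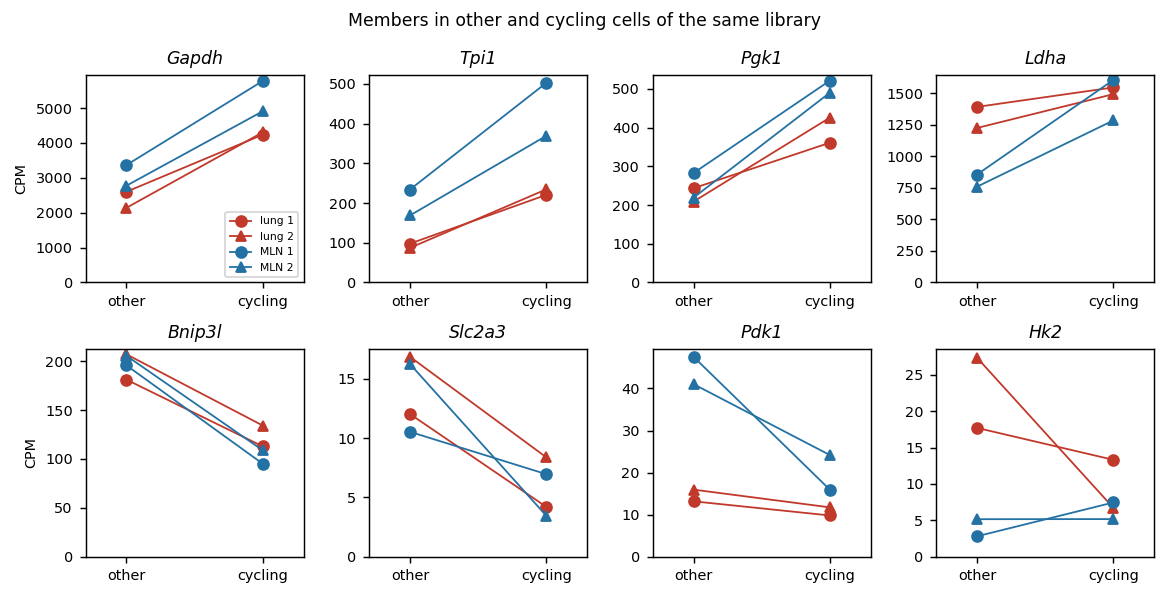
CPM (linear axis from 0, scaled to each gene) of 8 genes in the other and the cycling cells of the 4 libraries of the first run, with a line joining the values of 1 library (red for lung, blue for MLN, circles for mouse 1, triangles for mouse 2). Gapdh, Tpi1 and Pgk1 are higher in the cycling cells of all 4 libraries, Bnip3l, Slc2a3 and Pdk1 are lower in all 4, and the lines of Ldha are steeper for MLN than for lung.

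Tpi1 rose from 97.8 to 221 CPM in lung 1, from 87.1 to 235 in lung 2, from 234 to 503 in MLN 1 and from 169 to 369.5 in MLN 2 (log2 difference 1.24, SE 0.0982, adjusted p = 1.93e-09). Pgk1 rose from 243 to 361, 209 to 426, 283 to 521 and 219 to 490.3 in the same order (0.94, SE 0.112, adjusted p = 8.62e-07). Gapdh rose from 2600 to 4238, 2140 to 4307, 3365 to 5779 and 2774 to 4910 (0.87, SE 0.0942, adjusted p = 2.28e-07). The direction was the same in all 4 libraries for these genes. Pgam1 (0.97), Pkm (0.81), Eno1 (0.59), Slc16a1 (0.96) and Mpc1 (0.44) were also higher. Aldoa passed at 0.30, but not without the library as a block (adjusted p = 0.0577), nor without lung 2, MLN 1 or MLN 2 (0.066 to 0.212), nor with cycling cells set at 0.2% of UMIs (0.0762). Slc16a1 was lost with thinned sums (0.0738) and Mpc1 without MLN 1 (0.0525).

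The genes that were lower in cycling cells included the glucose transporter Slc2a3, which fell from 12.04 to 4.21, 16.9 to 8.38, 10.5 to 6.97 and 16.3 to 3.45 CPM (−1.09, SE 0.302, adjusted p = 0.00606). Bnip3l fell from 181 to 113, 207 to 134, 196 to 95.03 and 206 to 109 (−0.79, SE 0.105, adjusted p = 4.01e-06). Pdk1 fell as well, from 13.2 to 9.81, 15.96 to 11.7, 47.5 to 15.9 and 41.0 to 24.2 (−0.98, SE 0.209, adjusted p = 0.000708, and 0.0906 without MLN 1). Each of the 3 fell in all 4 libraries. Aldoc (−1.42, with 0 to 10 UMIs in cycling cells), Pfkfb3 (−0.89), Bnip3 (−0.87), P4ha1 (−0.59), Bpgm (−0.54) and Slc2a1 (−0.44) passed with edgeR, but none of these 6 passed with DESeq2 (adjusted p = 0.0524 to 0.217). Slc2a1 also lost its call without the block (0.139), with thinned sums (0.524), at 0.2% of UMIs (0.0878) and without each library in turn (0.0662 to 0.177). Hif1a was at −0.26 (adjusted p = 0.0565) and Hk2 at −0.20 (adjusted p = 0.685). Hk2 fell in lung 1 (17.7 to 13.3 CPM) and lung 2 (27.35 to 6.71). It rose in MLN 1 (2.82 to 7.46) and was level in MLN 2 (5.16 to 5.18), with 3 to 19 UMIs in cycling cells.

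Ldha was the gene whose cycling difference depended on the organ. It stood at 1391 in the other and 1545 in the cycling cells of lung 1, at 1224 and 1492 in lung 2, at 855 and 1605 in MLN 1 and at 759 and 1284 in MLN 2. Cycling cells thus held similar levels in both organs, and the gap between the organs lay in the cells that were not cycling. The difference in lung was smaller than that in MLN by a log2 value of −0.84 (SE 0.116, adjusted p = 6.51e-05), and this was the only 1 of 31 genes to pass, against 2.29% of 9651 genes, while 7 had an unadjusted p below 0.05 (13.1% of all genes). It passed in all 6 alternatives, with adjusted p-values from 1.93e-07 to 0.00378. Of the other genes Hk2 had the widest difference between the organs, at −2.13 (SE 0.621, adjusted p = 0.0682), and did not pass. Cycling cells were larger in RNA, with median UMIs per cell of 12480 to 14830 against 4836 to 6659, and all 6 T cell markers were lower in them.

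Per cell, the 32 genes were summed as a share of the cell's UMIs. The median share was 0.743% and 0.651% in lung 1 and lung 2 and 0.774% and 0.661% in MLN 1 and MLN 2, so that the medians of the 2 mice differed more than those of the organs. In the second run it was 0.740% to 0.834% in IL-4eGFP+ samples and 0.547% to 0.582% in IL-4eGFP- samples, with no overlap and a log2 ratio of 0.47 ± 0.04 (SD over 4 pairs). Gapdh gave 34.0% and 34.7% of the summed UMIs in lung and 37.8% and 39.0% in MLN, and Ldha 16.7% and 17.1% in lung and 10.1% and 10.3% in MLN. The sum was thus carried largely by few genes, and without Gapdh the gate ratio was 0.29 ± 0.05.

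**Figure D5:**
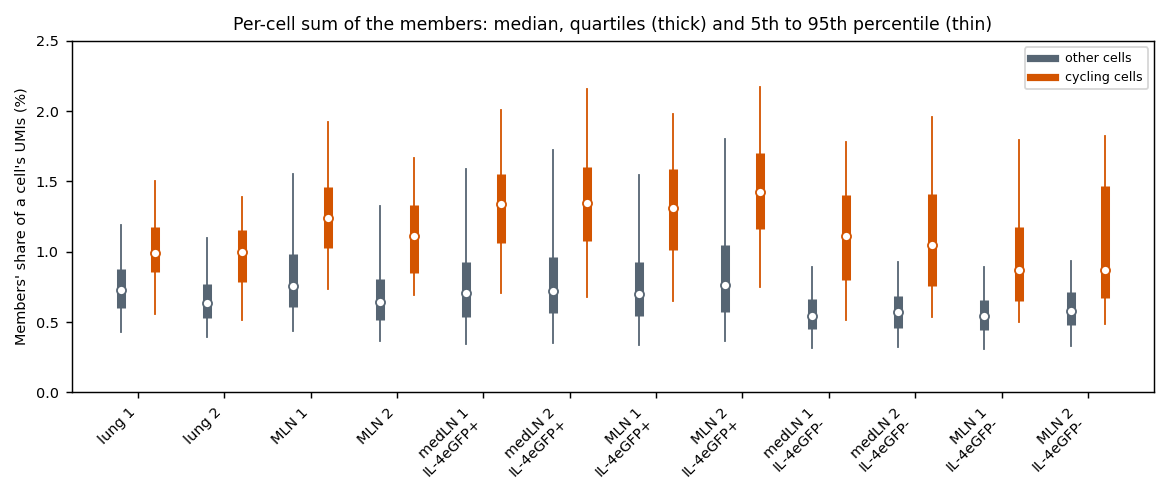
Share of a cell's UMIs that comes from the 32 genes (vertical axis, %), for other cells (grey) and cycling cells (orange) of each of the 12 samples, with the median as a white point, the quartiles as a thick bar and the 5th to 95th percentile as a thin line. The median of the cycling cells lies above that of the other cells in all 12 samples, and among other cells the medians are 0.699% to 0.767% in the IL-4eGFP+ and 0.542% to 0.579% in the IL-4eGFP- samples of the second run.

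The upper tail of the share set the organs apart more than the median did. Cells with at least 1.5% of their UMIs from the 32 genes made up 0.832% of lung 1 (exact binomial 95% interval 0.381 to 1.57%) and 0.481% of lung 2 (0.0583 to 1.73%). In MLN 1 they made up 6.30% (5.37 to 7.33%) and in MLN 2 3.32% (2.16 to 4.86%). The intervals of the lung libraries lay below those of the MLN libraries, and they cover counting error only. Those of MLN 1 and MLN 2 did not overlap each other either, so libraries of the same organ differed by more than this error. In the second run the share was 8.53% to 14.8% in IL-4eGFP+ and 0.489% to 0.765% in IL-4eGFP- samples. Cycling cells held more of them in every sample except lung 2, such as 22.8% against 5.40% of the other cells in MLN 1. In lung 2 they were 0 of 45 cycling cells against 0.539% of the other cells. Lung cells were below MLN cells also among the cells that were not cycling (0.407% and 0.539% against 5.40% and 2.94%). The cut at 1.5% was chosen after the shares were seen.

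The cells at the top of the share were described without a test. Among cells that were not cycling, the 5% with the highest share in MLN were led by Rgs16, Padi4, Ascl2 and Il21, with Il21, a cytokine of follicular helper T cells, at 85.1 against 7.98 CPM in the remaining cells. In lung they were led by the type 2 cytokine gene Il5 (334 against 52.2), the receptor gene Lag3 (191 against 53.5) and Il1r2 (84.8 against 20.7). Il1r2 was among the leading genes in both. The lung leaders also held the histone gene H2afz (1767 against 685) and the DNA ligase gene Lig1 (88.0 against 39.4). The top cells numbered 50 in lung 1 and 19 in lung 2. They were deeper than the remaining cells, with medians of 8834 against 6528 and 8627 against 5406 UMIs. In the IL-4eGFP+ node samples of the second run the top cells were led by Il5 (174 against 2.65) and Il13 (985 against 45.7), together with Il21 (116.5 against 23.2), so that neither Il5 nor Il21 went with 1 organ throughout. In lung, cells with a UMI of Il13 or Il5 (351 in lung 1, 88 in lung 2) held more Eno1 (662 against 486 in lung 1, 610 against 481 in lung 2) and less Pdk1 (7.31 against 15.5 and 9.92 against 16.8) than the cells without. Ldha and Hif1a were also higher in them in both libraries. Ldhb was close to level (2.66 against 2.37 in lung 1, 2.835 against 2.399 in lung 2), from only 21 and 7 UMIs per library. Hk2 was higher in lung 1 (20.3 against 15.2) but lower in lung 2 (12.8 against 26.4). Egln3 was lower in lung 1 (44.9 against 52.95) but higher in lung 2 (55.3 against 37.9). Cells with a cytokine UMI were also deeper, with medians of 7499 against 6632 and 6497 against 5591 UMIs, and free RNA can give a UMI to a cell that does not express the gene.

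Among IL-4eGFP- cells, those with a UMI of Foxp3, the factor of regulatory T cells, numbered 189 to 257 per sample and held more Hif1a. The values were 141 against 71.2 CPM in medLN 1, 167 against 76.8 in medLN 2, 157 against 65.1 in MLN 1 and 159 against 65.4 in MLN 2. The hydroxylase gene Egln3 was higher in them as well, at 26.6 against 3.25, 19.4 against 4.93, 7.41 against 2.99 and 25.9 against 2.98 in the same order. Pdk1 went the other way, at 27.7 against 89.0, 26.2 against 78.3, 50.4 against 93.2 and 53.1 against 93.0. In all 4 samples the Foxp3 cells thus lay on the same side as IL-4eGFP+ cells for these 3 genes, while their median depth (2762 to 3137 UMIs) was below that of the cells without (3306 to 3404). Ldha and Eno1 were on that side in all 4 as well. Ldhb was higher in Foxp3 cells of medLN 1 (43.7 against 36.35) and MLN 2 (38.3 against 30.65) but lower in those of medLN 2 and MLN 1. Hk2, with very few UMIs, was higher in Foxp3 cells except in MLN 2 (0 against 0.71). No test was run on this split, which was chosen after the values were seen.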

How the data were processed

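Gene expression was measured by 10x 5′ single-cell RNA sequencing. Per the labels and the study's methods, the authors made UMI counts per gene and cell with Cell Ranger (2.1.1 and 3.0.1 for lung and MLN on mm10, 6.1.2 for the second run, whose build is not given in the sources used here) and deposited unnormalized counts per cell. Whether reads were thinned when libraries of the second run were aggregated is not given either. A 5′ count does not tell splice forms of a gene apart.

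Cells were kept when they had more than 500 UMIs and 500 genes, less than 7% of UMIs from mitochondria and a novelty (log10 genes over log10 UMIs) above 0.8 (5938 of 6319 barcodes in the first run and 19406 of 19683 in the second), in the first run only those with a productive TCR α and β chain (4714), and T cell receptor genes were left out. The gate was read from the barcode ending. In the second run hashtags were assigned with Seurat 5.3.0 HTODemux (quantile 0.99), which kept 16748 singlets and dropped 2536 doublets and 122 negatives. No doublet caller was run in the first run. Libraries shared 0 to 155 barcodes.

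Counts were summed per gene and sample and tested with edgeR 4.0.16 (TMM, filterByExpr, quasi-likelihood F test, Benjamini-Hochberg over all genes, threshold 0.05) in R 4.3.3. Log2 differences use TMM scaling, whereas CPM use library totals without T cell receptor genes, so that the signs of small differences can deviate. Standard errors were taken from the log2 difference and its F value. Cycling cells had at least 0.1% of their UMIs and at least 3 UMIs from 17 genes, and their comparison kept the library as a block. For shares, cells were also thinned to 2000 UMIs. On simulated counts of lung against MLN over 10504 genes the test recovered 187 of 194 genes changed by 2 on the log2 scale, with 6 false calls. The same change was recovered less often for organ by gate (165 of 199) and cycling by organ (135 of 195). A gene that did not pass in those tests can therefore still differ. The simulated spread was a single fixed value for all genes. Smaller changes, like most of those called in lung against MLN, were not simulated. Replicates of a group differed by more than UMI counting noise (chi-square per degree of freedom 2.51 to 7.28). This value also takes in the draw of different cells in each sample.

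Same-numbered samples come from the same mouse in the study's design, and the correlation of their deviations was 0.0377 for lung and MLN, 0.235 and 0.117 for the nodes and 0.116 and 0.125 for the gates. Near-identical genes were found with BLAST 2.17.0 (at least 95% identity over at least 150 bases), and gene positions are from GENCODE vM21. Alternatives were DESeq2 1.42.0, no filter on low counts, thinned sums, a replicate block, other cell filters, each sample left out and, added after the data were seen, library totals and the test of cycling by organ. All genes of the list could be named, those past the threshold with values, up to 16 in lung against MLN and 10 in the other comparisons by size, and up to 4 passing genes of each other list. The members, lists and rules were chosen with earlier results of these data known.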

Additional observations from a re-analysis of the deposited data

Results flagged for a closer look

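Among the 4 samples of a gate, single samples of 5 genes stood apart from the other 3 by Dixon's criterion. In IL-4eGFP+ cells these were Pfkfb3 in medLN 1 (17.8 CPM), Tpi1 in MLN 2 (440.7), Mpc2 in medLN 2 (120.7) and Bnip3 in MLN 2 (15.95). In IL-4eGFP- cells it was Bnip3l in medLN 1 (160.9). By chance alone about 5% of groups would be picked out this way, and all 31 testable genes were looked at in both gates. The cycling difference of Ldha differed between lung and MLN by −0.84 on the log2 scale in a test of the difference itself.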

How the results depend on the processing

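The number of the 32 genes called in lung against MLN was 16, with 14 by DESeq2. The count over all 10588 genes was 3284, with 1833 by DESeq2. When 1 library was left out, the median log2 difference of the listed genes lay between −0.28 and 0.01. Library totals in place of TMM, added after the data were seen, moved the median of all genes to −0.148 in lung against MLN and to 0.18 between the gates, and gave 17 calls (7 higher, 10 lower) and 28 calls (23 higher, 5 lower). The counts over all genes were then 3359 of 10588 and 7407 of 11535. In the IL-4eGFP+ nodes the 1 call became 0 with DESeq2 and with no filter on low counts, and 0 to 3 when 1 sample was left out. In the IL-4eGFP- nodes leaving out 1 sample gave 0 to 1 calls. The gate count of 30 fell to 18 among cells with a Cd44 UMI, while the count over all genes fell from 7162 of 11535 to 2076 of 10006, and there Hk2 moved to 0.84, Eno1 to 0.07 and Pdha1 to 0.28, and Bnip3l moved to 0.02 without cycling cells. The cause was not tested. Organ by gate rose from 0 to 1 with no filter, with 68 of all 18063 genes called. Cycling against other cells gave 12 to 18 calls when 1 library was left out (12 without MLN 1, 4 of them lower). Over all genes these fits called 3127 to 3675. DESeq2 gave 13 calls for cycling cells (3 lower), with 2909 of all 9054 genes called. Thinned sums gave 13 as well (4 lower), with 2441 of all 6372 genes called. Cycling by organ gave 1 to 2. The log2 ratio of the median per-cell share, −0.04 for lung over MLN and 0.47 between gates, became 0.09 and 0.29 without Gapdh. With cells thinned to 2000 UMIs the ratio of means, not medians, was −0.15 and 0.63, so these values differ from the first in more than depth. The thinned medians were 15 and 13 UMIs in lung and 16 and 13 in MLN. They were 15 to 17 in IL-4eGFP+ and 11 to 12 in IL-4eGFP- samples. With the replicate block, since pairs come from 1 mouse, 16 genes were called in lung against MLN, 1 and 0 in the nodes, 29 between gates and 0 for organ by gate. Without the block 18 were called for cycling cells. Over all genes these fits called 3886 of 10588 in lung against MLN, 7021 of 11035 between gates and 3974 of 9054 for cycling cells. Of the called genes 8 of 16 in lung against MLN, 15 of 30 between gates and 9 of 19 in cycling cells passed under every alternative run. The alternatives differed between comparisons, with the Cd44 restriction run for the gates only, so these counts cannot be set against each other. No such share over all called genes is given here. With 2 mice per run and few UMIs for Hk2, Ldhb, Aldoc and Vegfa, small differences of these genes were not detectable at this depth.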
